A study of Mus musculus with 123 samples.

Results

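Groups of control morulae, 1 from each of 2 mutant mouse lines, were compared gene by gene. They were 8 single Oct4 Ctrl morulae and 8 single Sox2 Ctrl morulae, 16 of the 48 Ctrl, 48 KO and 27 MWT embryos of the series, and all were chosen by their labels, which give E2.75 (embryonic day) for both groups. Oct4 Ctrl embryos came from mothers in which floxed Pou5f1, the gene of Oct4, had been deleted in the oocyte by Zp3-Cre, a Cre recombinase made only in growing oocytes, and carried an intact Pou5f1 allele from the father. Sox2 Ctrl embryos had the same design for Sox2, so each group lacked the maternal copy of a different gene and kept both copies of the other group's gene. The fathers carried a null allele with a fluorescent reporter, mKO2 for Pou5f1 and EGFP for Sox2, and Ctrl embryos were those without the reporter. All embryos were labelled B6C3F1, the mothers were superovulated, the flox and reporter alleles had been made in mouse ES cells, and the morulae were sequenced whole without the MEK inhibitor PD0325901 that was given to the ICM stages. For reference, 8 KO morulae of each line, which lacked the named gene altogether, 7 Oct4 MWT morulae, labelled Ctrl and as coming from mothers with an intact gene, and Ctrl inner cell masses (ICMs), labelled E3.75 (early) and E4.5 (late), were measured by the same method. The question was how far the Ctrl embryos, which serve as the baseline within each line, differ from each other between the lines.

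Oct4 and Sox2 are transcription factors that bind DNA together and hold the network of pluripotency genes in place. Oct4 is already made in the morula, whereas Sox2 is made strongly only once the inner cells have formed. The morula is also the stage at which outer cells polarise and begin the trophectoderm programme under Hippo signalling, while the last maternal messages are cleared.

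Expression was measured as UMI counts, that is, counts of distinct tagged messages, and is given as CPM, the UMIs of a gene per 1000000 UMIs of the embryo. Total UMIs ranged from 892690 to 1059900 in Oct4 Ctrl and from 974140 to 1344000 in Sox2 Ctrl morulae. Morula markers were present in both groups: Nanog, a pluripotency factor, was at 178 to 338 CPM in Oct4 Ctrl and 84.2 to 557 CPM in Sox2 Ctrl morulae, and Tead4, the partner of the Hippo effector Yap, at 76.4 to 124 and 100.1 to 144 CPM. Summed over the 14 of 19 markers of maternal tract and blood cells that the table held, no Ctrl morula exceeded 5.67 CPM. No pair of embryos within a group was alike enough to be copies of 1 library, the lowest chi-square per gene being 2.04. The first principal component of the 500 most variable genes held 29.6% of the variance and placed every Oct4 Ctrl embryo (-29.3 to 0.072) below every Sox2 Ctrl embryo (6.86 to 22.3). The labels name no litter, mother or batch, so p-values measure the spread between these embryos, and the line, its litters and their handling cannot be told apart.

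Of 14053 genes tested, 981 were called, meaning an adjusted p-value under 0.05 in edgeR's quasi-likelihood test and a log2 fold change of at least 1 in either direction, which is 6.98% of the genes. Fold changes are given throughout as the Sox2 line minus the Oct4 line. In Sox2 Ctrl morulae 629 genes (4.48%) were lower and 352 (2.5%) were higher. The called genes had a median absolute log2 fold change of 1.47, and 232 of them reached 2. For 269 called genes, 153 lower and 116 higher, the 8 embryos of 1 line did not overlap the 8 of the other, against 749 of all genes tested (5.33%). In 373 called genes the line with more expression averaged 20 CPM or above, and 244 stayed under 5 CPM in both lines. Each library was a whole embryo, so fewer cells of a type and less RNA per cell cannot be told apart.

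**Figure D1:**
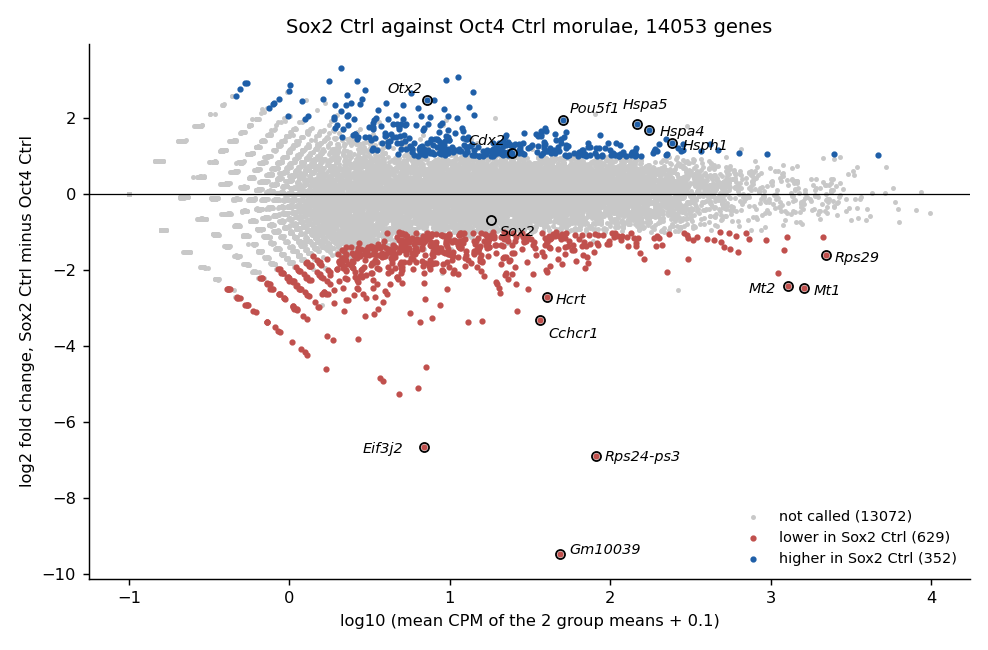
Log2 fold change (Sox2 Ctrl minus Oct4 Ctrl morulae) of 14053 genes against the log10 of the mean CPM of the 2 groups plus 0.1, with called genes in colour (629 lower in red, 352 higher in blue) and labelled genes ringed. Mt1 and Mt2 (-2.46 and -2.41) and Rps29 (-1.59) stand low at high expression, Pou5f1 (1.95) stands high, and Sox2 (-0.67) lies among the genes not called.

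Pou5f1 itself differed between the Ctrl groups. Its lowest, median and highest CPM were 13.4, 23.1 and 26.6 in Oct4 Ctrl morulae and 65.8, 80.6 and 91.5 in Sox2 Ctrl morulae. The groups did not overlap, and the log2 fold change was 1.95 ± 0.21 (SE, n = 8 and 8; edgeR adjusted p-value 2.99e-12). Oct4 MWT morulae, whose mothers kept the gene, had 7.47, 24.3 and 32.8 CPM, a log2 difference from Oct4 Ctrl of 0.05 (edgeR adjusted p-value 0.995). Oct4 KO morulae had 0, 0 and 3.24 CPM, which checks their label, and Sox2 KO morulae had 64.9, 89.5 and 108 CPM. Thus a low Pou5f1 level was measured in both Oct4 Ctrl and Oct4 MWT morulae. The labels name the MWT embryos Ctrl as well but do not spell out their zygotic alleles. Pou5f1 lies at chr17:35506018-35510772 (mm10, + strand) and overlaps the antisense gene Gm19553, from which its UMIs may not be separable, since the sources used here do not say whether counting used strand.

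Sox2 was lower on average but did not pass the test. Its lowest, median and highest CPM were 10.6, 22.4 and 44.8 in Oct4 Ctrl morulae and 2.91, 12.4 and 34.2 in Sox2 Ctrl morulae. The ranges overlapped, with a log2 fold change of -0.67 ± 0.36 (SE; edgeR adjusted p-value 0.184). Sox2 KO morulae had 0, 1.81 and 3.32 CPM, the level without a working allele. Sox2 (chr3:34650405-34652461, + strand) lies within the long noncoding gene Sox2ot on the same strand, so reads of both can be mixed.

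The gene with the smallest p-value among the lowest fold changes lay beside Pou5f1. Cchcr1, which encodes a coiled-coil protein of centrosomes and RNA-processing bodies, starts 11.1 kb downstream of the Pou5f1 start (chr17:35517100-35531015, + strand). Its CPM were 51.1, 65.7 and 85.5 (lowest, median and highest) in Oct4 Ctrl morulae and 2.85, 6.03 and 9.80 in Sox2 Ctrl morulae, a log2 fold change of -3.31 ± 0.25 (SE; edgeR adjusted p-value 1.40e-19). In Oct4 KO morulae Cchcr1 stood at 41.2 to 67.5 CPM and in Sox2 KO morulae at 4.15 to 16.0 CPM. Oct4 MWT morulae had 3.73 to 12.9 CPM, inside the range of the Sox2 line rather than that of their own line, with a log2 difference from Oct4 Ctrl of -3.24 (edgeR adjusted p-value 3.62e-17). High Cchcr1 was thus measured in Oct4 Ctrl and Oct4 KO morulae and not in Oct4 MWT, Sox2 Ctrl or Sox2 KO morulae. Psors1c2, the next gene downstream, was named after its values were seen: its median and highest CPM were 2.67 and 6.60 in Oct4 Ctrl, 0 and 0.969 in Sox2 Ctrl and 0 and 1.07 in Oct4 MWT morulae (log2 fold change between Ctrl groups -2.86, edgeR adjusted p-value 0.00122). Tcf19, which lies between Pou5f1 and Cchcr1 on the other strand, was at 2.23 and 4.43 CPM and was not called (log2 fold change 0.90, edgeR adjusted p-value 0.223).

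**Figure D2:**
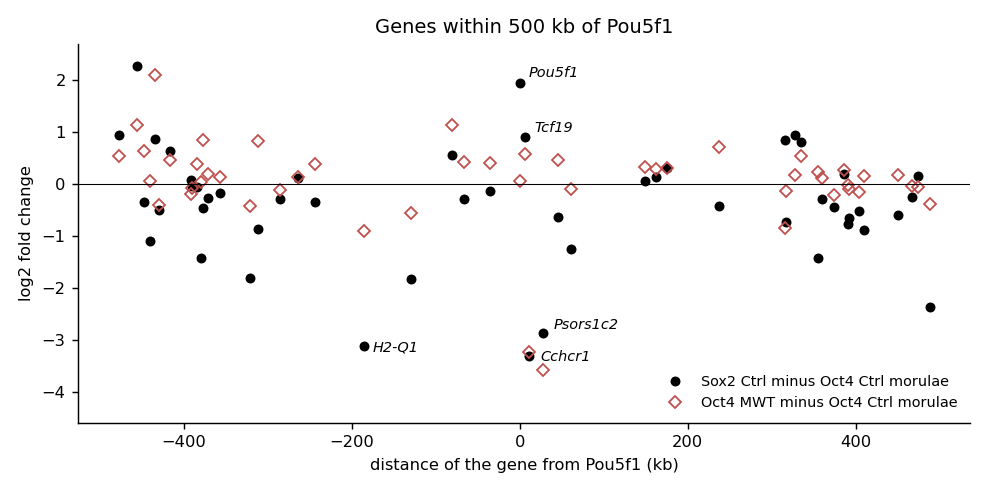
Log2 fold change of tested genes within 500 kb of Pou5f1 against their distance from it in kb, as black points for Sox2 Ctrl minus Oct4 Ctrl morulae and open red diamonds for Oct4 MWT minus Oct4 Ctrl morulae. Cchcr1 and Psors1c2 lie low in both (-3.31 and -2.86, -3.24 and -3.58), whereas Pou5f1 is at 1.95 in the first and 0.05 in the second.

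Calls were denser around Pou5f1 than around Sox2. Within 10 Mb of Pou5f1, 27 of 287 genes tested were lower and 7 higher, 11.8% against 6.98% of all genes. Within 10 Mb of Sox2, 1 of 70 was lower and 2 were higher (4.29%). The Pou5f1 window holds the MHC, in which H2-Q1, an MHC class I gene, had 2.13, 7.69 and 22.7 CPM in Oct4 Ctrl and 0, 0.909 and 4.11 CPM in Sox2 Ctrl morulae (log2 fold change -3.11 ± 0.64, edgeR adjusted p-value 0.000103). In the KO morulae the H2-Q1 difference was 2.92, the other way, where the highest of the 8 Sox2 KO embryos was at 14.1 CPM and their median at 0.887 CPM. On average H2-Q1 was at 10.1 CPM in Oct4 Ctrl and 0.216 CPM in Oct4 KO morulae. It averaged 1.10 CPM in Sox2 Ctrl and 2.65 CPM in Sox2 KO morulae. Psmb9, an immunoproteasome subunit of the same region, was also lower (-2.18 ± 0.82, edgeR adjusted p-value 0.0446), but lost its call without Sox2 Ctrl embryo 7 or Oct4 Ctrl embryo 15, and it overlaps Tap1 on the other strand. No test of the density itself was made.

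Within the Oct4 line, Oct4 MWT were compared with Oct4 Ctrl morulae. The labels name the MWT embryos both Ctrl and MWT but do not spell out the alleles they carried, so maternal deletion was not isolated by this comparison. It shares the Oct4 Ctrl libraries with the comparison of lines. Only 9 of 13923 genes were called (0.0646%), 7 lower and 2 higher in MWT. They were Cchcr1, Psors1c2, Tmem87a, Casc4, Gm15965, 9330136K24Rik and BC037704 lower, and Nccrp1 and Gm5745 higher, named because they are so few. This fit, with its own detection filter, tested 962 of the 981 genes called between the Ctrl groups, and the rest could not be called. Eif3j2 was not among the 9, although it had 107 UMIs in Oct4 Ctrl and 1 in Oct4 MWT morulae. Tmem87a, a Golgi membrane protein gene (chr2:120355312-120404113, - strand, overlapping Ganc on the other strand), was at 11.7, 26.0 and 41.7 CPM in Oct4 Ctrl, 0.927, 5.47 and 11.2 CPM in Sox2 Ctrl and 1.87, 9.05 and 10.9 CPM in Oct4 MWT morulae, with a log2 fold change between Ctrl groups of -2.16 ± 0.36 (edgeR adjusted p-value 2.18e-06). Casc4, a membrane protein gene on the same chromosome, had 96.9 to 206 CPM in Oct4 Ctrl, 36.5 to 78.5 CPM in Sox2 Ctrl and 28.5 to 101 CPM in Oct4 MWT morulae (-1.30 between Ctrl groups, edgeR adjusted p-value 8.78e-05). For both genes the MWT embryos lay near the Sox2 line, as for Cchcr1. Within 2 Mb of Tmem87a, 11 of 81 genes were called between the Ctrl groups, 6 lower and 5 higher (13.6%, against 6.98% of all genes), in a window chosen around a called gene.

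Among the lowest genes were both metallothioneins, the small cysteine-rich proteins that bind zinc and copper. Mt1 (chr8:94179082-94180327, + strand) had 1312, 2756 and 3859 CPM in Oct4 Ctrl morulae and 281, 511 and 694 CPM in Sox2 Ctrl morulae, a log2 fold change of -2.46 ± 0.33 (SE; edgeR adjusted p-value 3.35e-09). Mt2 (chr8:94172664-94173568, + strand) had 975, 2273 and 3102 CPM against 273, 409 and 555 CPM, a log2 fold change of -2.41 ± 0.32 (edgeR adjusted p-value 2.44e-09). The groups did not overlap for either gene. Oct4 MWT morulae had 2282 to 4912 CPM of Mt1 and 1561 to 3094 CPM of Mt2, as high as Oct4 Ctrl. In Sox2 KO morulae Mt1 stood at 359 to 502 CPM and in Oct4 KO morulae at 2009 to 3627 CPM. Metallothionein genes are switched on by the zinc-sensing factor Mtf1 through metal response elements, whose core is TGCACNC or TGCGCNC. To show these elements beside the levels, the RefSeq promoters (GRCm38.p6, 250 bases before to 50 after the start, + strand) are printed with each core on either strand in capitals, for Mt1 at chr8:94178839-94179138 and for Mt2 at chr8:94172368-94172667.
Mt1: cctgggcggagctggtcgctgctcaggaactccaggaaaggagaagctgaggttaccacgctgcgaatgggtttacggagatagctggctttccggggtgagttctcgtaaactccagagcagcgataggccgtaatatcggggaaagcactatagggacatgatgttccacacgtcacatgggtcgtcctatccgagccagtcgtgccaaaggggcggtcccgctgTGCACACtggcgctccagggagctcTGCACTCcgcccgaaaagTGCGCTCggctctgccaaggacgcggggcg
Mt2: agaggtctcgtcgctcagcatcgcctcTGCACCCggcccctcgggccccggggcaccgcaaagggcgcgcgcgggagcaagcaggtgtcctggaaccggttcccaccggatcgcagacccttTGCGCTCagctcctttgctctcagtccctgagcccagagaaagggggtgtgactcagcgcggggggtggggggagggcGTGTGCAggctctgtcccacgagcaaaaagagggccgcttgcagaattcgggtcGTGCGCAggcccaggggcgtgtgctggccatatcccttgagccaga
The Mt1 promoter held 3 cores and the Mt2 promoter 4. At least 1 core was found in 35.9% of the promoters of tested genes and at least 3 in 3.29%, against 25.6% and 2.00% of all 27025 promoters. Among 395 promoters of genes called lower the shares were 32.9% and 3.797%, and among 261 of genes called higher 41.8% and 4.98%. A match describes letters and not binding.

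Oosp1, an oocyte-secreted protein and thus a maternal message, had 2.06, 20.2 and 70.0 CPM in Oct4 Ctrl and 0, 2.28 and 8.72 CPM in Sox2 Ctrl morulae (-3.34 ± 0.53, edgeR adjusted p-value 9.00e-07). Hcrt, the precursor of the neuropeptide orexin, had 34.0, 66.1 and 121 CPM against 5.70, 9.85 and 21.3 CPM (-2.71 ± 0.34, edgeR adjusted p-value 1.44e-09). Its groups did not overlap, whereas those of Oosp1 did. Timmdc1, an assembly factor of mitochondrial complex I, had 7.84, 39.2 and 50.9 CPM against 2.91, 5.05 and 11.2 CPM (-2.59 ± 0.33). Galnt11, which starts O-linked glycans, had 14.2, 59.8 and 87.3 CPM against 3.08, 8.53 and 15.2 CPM (-2.50 ± 0.41). For each, the 2 lowest Oct4 Ctrl embryos lay within the Sox2 Ctrl range. Ifitm2, an interferon-induced membrane protein, had 15.1, 35.7 and 51.9 CPM against 0.927, 5.29 and 12.7 CPM (-2.47 ± 0.38), without overlap.

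Rps6ka1, a kinase downstream of ERK, had 16.3, 42.6 and 68.0 CPM in Oct4 Ctrl and 0.792, 7.19 and 26.7 CPM in Sox2 Ctrl morulae (-2.36 ± 0.32). Hdac5, a class IIa histone deacetylase, had 11.2, 29.7 and 57.3 CPM against 3.96, 6.10 and 10.3 CPM (-2.32 ± 0.33). Hdac5 did not overlap between lines, and Rps6ka1 did through 1 Sox2 Ctrl embryo. The edgeR adjusted p-values of Timmdc1, Galnt11, Ifitm2, Rps6ka1 and Hdac5 were 8.80e-07 or less, and 8 of the 12 lowest genes had groups without overlap, against 269 of the 981 called and 5.33% of all genes, although the rule that named them favours separate groups.

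**Figure D3:**
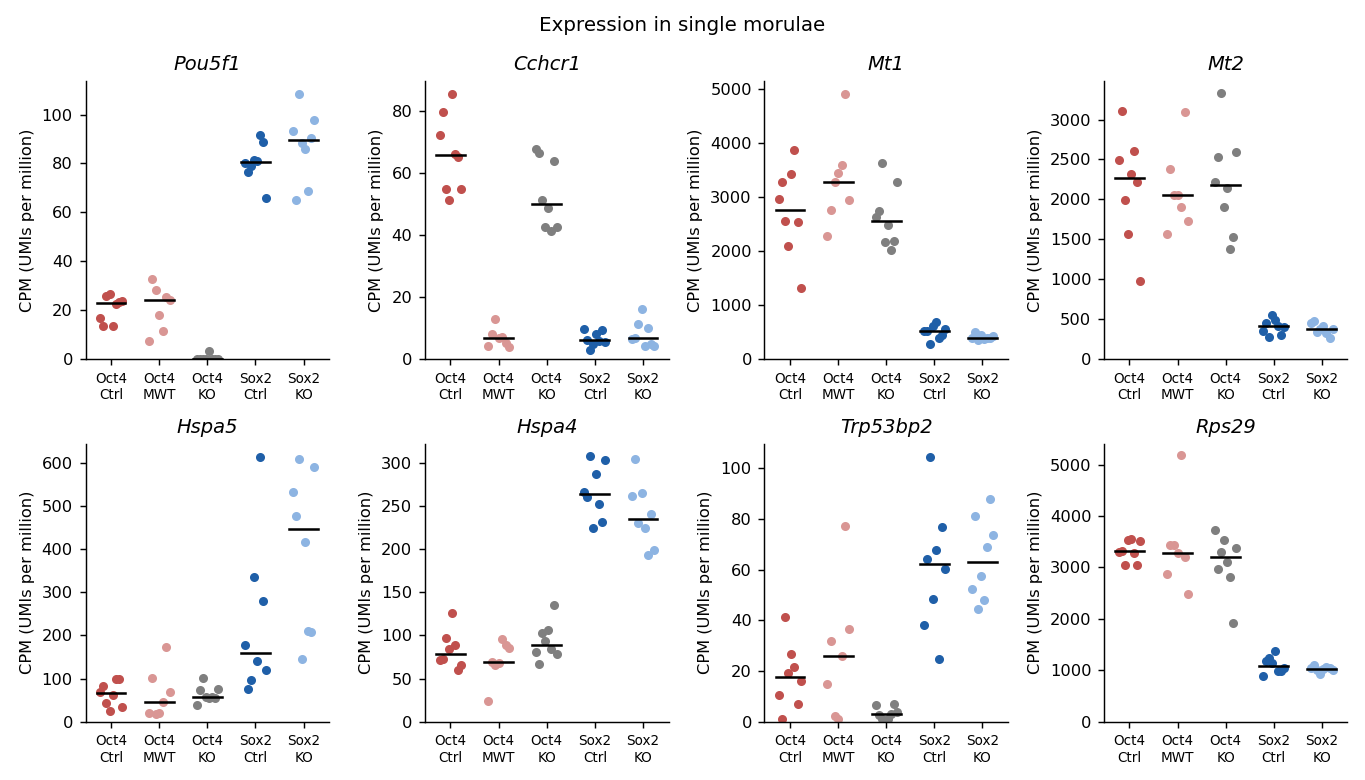
CPM on linear axes from 0 of 8 genes in each embryo (points) of the Oct4 Ctrl, Oct4 MWT, Oct4 KO, Sox2 Ctrl and Sox2 KO morulae, with a line at each group median. Oct4 MWT embryos lie with Oct4 Ctrl for Pou5f1 (medians 24.3 and 23.1) and Mt1 (3278 and 2756), but with Sox2 Ctrl for Cchcr1 (6.79 and 6.03).

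Hspa5, the BiP chaperone of the endoplasmic reticulum (chr2:34771970-34777547, + strand), had 24.5, 66.4 and 99.0 CPM in Oct4 Ctrl and 75.4, 159 and 614 CPM in Sox2 Ctrl morulae, a log2 fold change of 1.86 ± 0.31 (SE; edgeR adjusted p-value 2.18e-06). Hspa4, a nucleotide exchange factor for Hsp70 (chr11:53259814-53300457, - strand), had 60.2, 78.5 and 126 CPM against 224, 263 and 308 CPM (1.68 ± 0.14, edgeR adjusted p-value 4.21e-18). Its relative Hsph1 (chr5:149614287-149636376, - strand) had 103, 123.4 and 197 CPM against 284, 331 and 436 CPM (1.35 ± 0.16, edgeR adjusted p-value 1.08e-10). Hspa4 and Hsph1 did not overlap between lines, and Hspa5 did. Oct4 MWT morulae had 18.8 to 174 CPM of Hspa5, which overlapped Sox2 Ctrl, and 24.5 to 95.2 CPM of Hspa4 and 99.8 to 156 CPM of Hsph1, both below every Sox2 Ctrl embryo. The promoters of Hspa5 (chr2:34771840-34772139, + strand) and Hsph1 (chr5:149636287-149636586, - strand) are printed because each holds the element of a different stress pathway, the endoplasmic reticulum stress response element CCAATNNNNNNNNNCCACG and the heat shock element GAANNTTCNNGAA, in capitals.
Hspa5: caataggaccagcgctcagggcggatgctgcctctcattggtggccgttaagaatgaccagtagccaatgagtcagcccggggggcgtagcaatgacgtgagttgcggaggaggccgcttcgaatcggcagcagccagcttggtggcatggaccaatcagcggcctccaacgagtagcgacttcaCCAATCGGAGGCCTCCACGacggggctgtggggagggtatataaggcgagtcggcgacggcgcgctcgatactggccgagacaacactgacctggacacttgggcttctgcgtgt
Hsph1: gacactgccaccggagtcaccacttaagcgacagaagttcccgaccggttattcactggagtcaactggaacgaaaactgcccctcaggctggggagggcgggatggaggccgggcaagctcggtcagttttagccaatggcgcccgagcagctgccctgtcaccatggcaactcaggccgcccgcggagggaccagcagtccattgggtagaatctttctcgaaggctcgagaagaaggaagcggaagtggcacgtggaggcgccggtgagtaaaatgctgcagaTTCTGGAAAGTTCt
On either strand the first element was found in 0.208% of promoters of tested genes and 0.130% of all promoters, and the second in 0.396% and 0.529%. The Hspa4 window held no heat shock element of these letters.

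Of 28 stress response genes tested, Hspa5 and Hsph1 were called higher and none lower (Hspa4 is not on the list), and the list's median log2 fold change was 0.52 against -0.025 over all genes, and its share of calls was near the 6.98% of all genes. Hspa8, the constitutive Hsp70, and Hsp90aa1, an Hsp90, had log2 fold changes of 0.99 and 0.72 with edgeR adjusted p-values of 2.32e-07 and 5.99e-06, under the fold needed for a call. Ddit3, of the integrated stress response, did not pass (1.11, edgeR adjusted p-value 0.0703), nor did the p53 target Cdkn1a (-0.44), whereas the p53 targets Sesn2 (-0.70, edgeR adjusted p-value 0.0128) and Mdm2 (0.55, edgeR adjusted p-value 0.0451) missed only the fold limit.

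Snap91, a clathrin assembly protein, had 2.04, 4.07 and 7.55 CPM in Oct4 Ctrl and 9.69, 22.1 and 36.1 CPM in Sox2 Ctrl morulae (2.29 ± 0.43), without overlap. Zbtb40, a zinc finger protein, had 0.970, 4.44 and 16.8 CPM against 14.1, 24.1 and 27.7 CPM (2.08 ± 0.35). Trp53bp2, an apoptosis-promoting partner of p53, had 0.970, 17.6 and 41.4 CPM against 24.6, 62.2 and 104 CPM (1.75 ± 0.31). Both overlapped at the edges. L1td1, an RNA-binding protein of pluripotent cells, had 8.49, 15.1 and 30.9 CPM against 30.6, 58.7 and 83.4 CPM (1.68 ± 0.24). Rala, a Ras-like GTPase, had 9.54, 16.7 and 30.9 CPM against 38.7, 51.5 and 105 CPM (1.67 ± 0.20). Slc44a1, a choline transporter, had 9.58, 21.8 and 51.5 CPM against 53.6, 69.6 and 120 CPM (1.65 ± 0.23). Of these 3, Rala and Slc44a1 did not overlap.

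Sap30, a subunit of the Sin3 histone deacetylase complex, had 10.4, 22.1 and 41.4 CPM in Oct4 Ctrl and 46.0, 65.2 and 112 CPM in Sox2 Ctrl morulae (1.58 ± 0.25). Gkap1, an anchor of cGMP-dependent kinase, had 10.2, 17.97 and 29.8 CPM against 38.8, 56.5 and 81.6 CPM (1.58 ± 0.19). Neither overlapped between lines. Fcgr3, an antibody Fc receptor, had 4.26, 17.2 and 33.0 CPM against 19.4, 44.5 and 120 CPM (1.58 ± 0.39). Dst, a cytoskeletal linker, had 7.45, 9.57 and 16.96 CPM against 15.1, 27.9 and 62.1 CPM (1.56 ± 0.32). Those ranges overlapped, and the edgeR adjusted p-values of these 2 were 0.00132 and 7.53e-05. The edgeR adjusted p-values of Snap91, Zbtb40, Trp53bp2, L1td1, Rala, Slc44a1, Sap30 and Gkap1 were 2.43e-05 or less. In all, 6 of the 12 highest genes, named by the same rule, had groups without overlap, against 5.33% of all genes.

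Processed pseudogenes and unnamed transcripts were not ranked with them, and the most extreme of those behaved as present or absent. Gm10039 (chr11:100361716-100362126) had no UMI in any Sox2 Ctrl morula. It stood at 113 to 147 CPM in 6 Oct4 Ctrl morulae and at 0 and 2.06 CPM in the other 2, and at 90.5 to 134 CPM in 4 of 7 Oct4 MWT morulae. Against 3 UMIs over the Sox2 Ctrl group, that is a level at least 287-fold lower in the Sox2 line. Rps24-ps3 on the X chromosome stood at 204 to 327 CPM in 5 Oct4 Ctrl morulae and at most 3.77 CPM in the other 3, and at most 2.04 CPM in every Sox2 Ctrl morula. In Oct4 MWT morulae it stood at 441 CPM in 1 embryo and at 1.03 to 3.52 CPM in the other 6. Both are processed copies of expressed genes, so reads may be shared with their parent genes. Eif3j2, a single-exon copy of a translation initiation factor gene named after its values were seen, had 7.56, 10.9 and 25.8 CPM in Oct4 Ctrl and at most 1.13 CPM in Oct4 MWT morulae, and no UMI in any Sox2 Ctrl morula, at least 40.3-fold lower by the same floor. The highest of this class were Gm16344 (1.61 ± 0.37), which overlaps Myo7b, and Gm46332 (1.51 ± 0.32).

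The lineage lists are read against the 6.98% of all genes called, 4.48% lower and 2.5% higher. Of 26 pluripotency regulators 2 were higher, Pou5f1 and Otx2, a factor of the later epiblast, and none lower, with a list median of 0.24, a share of calls near that of all genes. Otx2 had 0, 1.58 and 5.60 CPM in Oct4 Ctrl and 0, 11.1 and 30.6 CPM in Sox2 Ctrl morulae (2.47 ± 0.68, edgeR adjusted p-value 0.00442). Of 25 trophectoderm genes 2 were higher and none lower, with a median of 0.092 (0.326 under an offset for transcript length and GC content), again near the share of all genes. Cdx2, which specifies trophectoderm, had 6.79, 14.01 and 27.7 CPM against 18.2, 33.8 and 52.3 CPM (1.10 ± 0.34, edgeR adjusted p-value 0.0138), and lost its call without Sox2 Ctrl embryo 16. Gata3, its parallel factor, had 18.4, 64.7 and 115 CPM against 92.6, 143 and 179 CPM (1.08 ± 0.33, edgeR adjusted p-value 0.0113), and lost it without Oct4 Ctrl embryo 11, where its log2 fold change was 0.95. Krt8, a trophectoderm keratin, pointed the other way, at 20.4 to 482 CPM against 85.6 to 286 CPM, and was not called (-0.94, edgeR adjusted p-value 0.115). Of 15 primitive endoderm genes only Lamb1, a laminin chain, was called (1.12 ± 0.35), with a list median of 0.068.

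Hippo and polarity genes gave 4 calls, 1 of 18 and 3 of 18, against 6.98% of all genes called. The 18 Hippo genes had a median of 0.037, which was -0.019 with RLE size factors and -0.158 under the length and GC offset. Of these Tead3, a paralogue of Tead4, was lower at 0.943, 4.42 and 20.2 CPM in Oct4 Ctrl against 0, 1.14 and 8.02 CPM in Sox2 Ctrl morulae (-1.68 ± 0.56, edgeR adjusted p-value 0.0227), a call lost without Oct4 Ctrl embryo 16. Of 18 polarity and junction genes, Cldn6, an embryonic claudin, and Prkcz, an atypical protein kinase C of the apical complex, were lower and Msn, an apical linker to actin, was higher, with a list median of 0.42. Prkcz had 112, 147 and 173 CPM against 45.2, 74.3 and 91.1 CPM without overlap (-1.02 ± 0.17, edgeR adjusted p-value 1.31e-06), and stood just under the fold limit without Sox2 Ctrl embryo 17. Cldn6 had 22.3, 83.5 and 153 CPM against 17.4, 32.7 and 43.6 CPM (-1.37 ± 0.39), and Msn had 0.944, 2.87 and 7.84 CPM against 4.08, 9.74 and 18.5 CPM (1.70 ± 0.51).

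Calls in the maternal, early zygotic and immune lists are set against 4.48% of all genes called lower and 2.5% higher. Of 18 oocyte and maternal-effect genes Oosp1 was lower and Nlrp14 higher (1.19 ± 0.38), with a list median of 0.17. Of 9 genes of the 2-cell stage programme, Tdpoz1, Tcstv3 and Tcstv1 were higher, with a list median of 0.90. All 3 were near detection: Tdpoz1 had 0, 0 and 3.19 CPM in Oct4 Ctrl and 0, 4.37 and 8.54 CPM in Sox2 Ctrl morulae (2.39 ± 0.88, edgeR adjusted p-value 0.0418), losing its call without Oct4 Ctrl embryo 19 or Sox2 Ctrl embryo 14, and Tcstv3 and Tcstv1 lost theirs without Sox2 Ctrl embryo 20. They belong to multicopy families, so their reads may be shared with near copies. Of 20 MHC class I and interferon genes 3 were lower (Ifitm2, H2-Q1 and Psmb9) and Bst2, an antiviral membrane protein, was higher, at 0, 0 and 1.06 CPM in Oct4 Ctrl against 0, 2.73 and 8.72 CPM in Sox2 Ctrl morulae (3.32 ± 0.82, edgeR adjusted p-value 0.00144), with a list median of 0.13.

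Among housekeeping lists, 2 of 25 cell cycle genes were higher and none lower, with a median of 0.27, a share near the 6.98% of all genes called. Mki67, a chromosome-coating protein of cycling cells, had 7.45, 19.2 and 26.8 CPM in Oct4 Ctrl and 19.4, 47.9 and 61.7 CPM in Sox2 Ctrl morulae (1.25 ± 0.25, edgeR adjusted p-value 5.21e-05). Ccnd1, cyclin D1, had a log2 fold change of 1.496 ± 0.54 (edgeR adjusted p-value 0.037) and lost its call without Sox2 Ctrl embryo 14. No gene was called among 24 of energy and glutathione metabolism (median 0.037, or -0.015 with RLE size factors), 23 imprinted genes (median -0.002), 10 of DNA methylation and demethylation (median 0.25), 2 that vary between inbred strains (median -0.62) or 4 markers of maternal tract and blood cells (median -0.77). In the same test over all genes 4569 had an unadjusted p-value under 0.05, and DESeq2 made 956 calls over all genes. At 9 list genes a group had no UMI, and with these at their bound the medians moved by at most 0.54, the blood and tract list to -0.23. Under the length and GC offset the medians were 0.169 for the cell cycle, 0.261 for MHC and interferon genes, 0.042 for primitive endoderm and -0.393 for the blood and tract list.

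Sex differed in number between the groups without reaching a call. Y-linked genes reached 10 UMIs in sum in 2 of 8 Oct4 Ctrl and 5 of 8 Sox2 Ctrl morulae. The 4 Y-linked genes tested, Kdm5d, Uty, Ddx3y and Eif2s3y, had log2 fold changes from 0.69 to 1.49 (median 1.15), and Xist, the RNA that silences an X chromosome, had -2.52 (edgeR adjusted p-value 0.134). With sex as a term, added after seeing the data, the calls between Ctrl groups numbered 900, and Prkcz, Psmb9, Ccnd1, Rpl10 and Rpl39 lost theirs.

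Short messages were a smaller share of the Sox2 Ctrl libraries. Transcripts under 1000 bases held 15.2 to 16.2% of UMIs in Oct4 Ctrl and 11.7 to 13.5% in Sox2 Ctrl morulae, with means of 15.7% and 12.6% and no overlap (two-sided exact permutation test, p = 0.0001554, the smallest that 8 against 8 allows; Benjamini-Hochberg value over 7 embryo measures 0.0003626). Oct4 MWT morulae lay at 14.5 to 16.5%, with Oct4 Ctrl. Mitochondrially encoded genes held 4.47 to 6.33% against 2.87 to 4.46% (same exact permutation p). Total UMIs were higher in Sox2 Ctrl, 1105900 against 984430 on average (exact permutation p = 0.0236, Benjamini-Hochberg value 0.0331), and detected genes, 13326 against 13575, did not pass (exact permutation p = 0.0786).

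The fold change followed transcript length across genes. Genes whose longest transcript was under 500 bases had a median log2 fold change of -0.53, with 14.7% of 443 called lower, and the median rose bin by bin to 0.18 for genes of 8000 bases or more. Among KO morulae the same bins had medians of -0.67 and 0.19. Among Ctrl early ICMs they had 0.13 and -0.12, the other direction, and between Oct4 MWT and Oct4 Ctrl morulae 0.0078 and 0.041. GC content moved with it: the median was -0.46 for genes over 60% GC and 0.18 between 40 and 45%. The share called lower was 10.3% of 943 long noncoding genes, 8.82% of 612 pseudogenes and 3.66% of 12131 protein-coding genes.

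**Figure D4:**
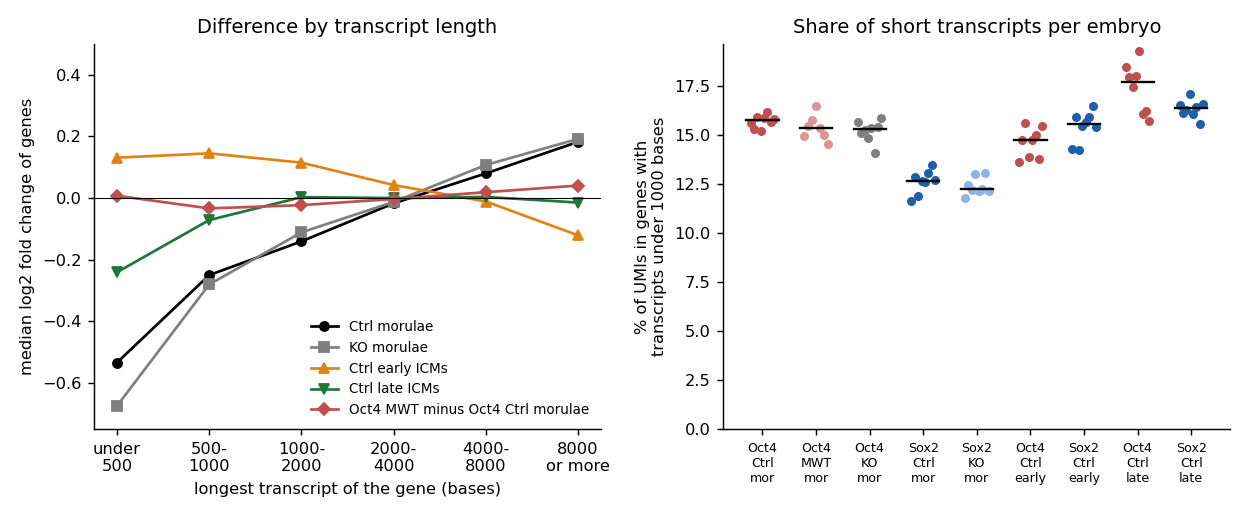
Left, median log2 fold change of genes in bins of longest transcript length (bases) for Ctrl morulae, KO morulae, Ctrl early ICMs and Ctrl late ICMs (Sox2 line minus Oct4 line) and for Oct4 MWT minus Oct4 Ctrl morulae, and right, the percentage of UMIs in genes with transcripts under 1000 bases in each embryo (points, with the group median as a line). Both morula comparisons rise from the shortest bin (-0.53 and -0.67) to the longest (0.18 and 0.19), and the Sox2 Ctrl embryos (11.7 to 13.5%) lie below the Oct4 Ctrl embryos (15.2 to 16.2%).

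Ribosomal protein genes, most of which are short, were lower in part. Of 83 cytosolic ribosomal protein genes 8 were lower and none higher, with a list median of -0.17, against 4.48% of all genes called lower and 2.5% higher. Rps29, of the small subunit, had 3044, 3314 and 3544 CPM in Oct4 Ctrl and 895, 1088 and 1377 CPM in Sox2 Ctrl morulae (-1.59 ± 0.12, edgeR adjusted p-value 6.68e-20). Rpl36 had 1624, 1735 and 2072 CPM against 530, 639 and 810 CPM (-1.47 ± 0.12, edgeR adjusted p-value 3.52e-17). Rpl39l, a Rpl39 paralogue of germ cells, had 689, 956 and 1091 CPM against 268, 330 and 379 CPM (-1.52 ± 0.17). These 3 did not overlap between lines, nor did Rps27, Rps27l, Rpl37 and Rpl39, with log2 fold changes of -1.25, -1.18, -1.13 and -1.12. Rpl10, at -1.03, did overlap and lost its call without Oct4 Ctrl embryo 11 or Sox2 Ctrl embryo 17. Rps3a1, by contrast, had a log2 fold change of 0.97 (edgeR adjusted p-value 2.33e-11), just under the limit. With an offset for length and GC content, added after seeing the data, 840 genes were called, the ribosomal median was -0.053, and Rpl36, Rpl37, Rpl39 and Rps27 lost their calls. Ribosomal protein genes have many processed copies, which can take reads from them.

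Of 33 mitochondrially encoded genes tested, 1 was higher and 3 lower, against 2.5% and 4.48% of all genes, with a median of -0.42 and, under the length and GC offset, of -0.13. All 4 were transfer RNAs (mt-Tg at 1.55, mt-Tv at -1.09, mt-Th at -1.07 and mt-Ts2 at -1.43), and each lost its call without 1 embryo: Sox2 Ctrl 12 for mt-Tg, Sox2 Ctrl 7 or Oct4 Ctrl 19 for mt-Tv, Oct4 Ctrl 18 for mt-Th and Sox2 Ctrl 20 for mt-Ts2. Protein-coding members such as mt-Co1 (-0.68, edgeR adjusted p-value 0.000396) and mt-Nd1 (-0.48, edgeR adjusted p-value 0.000238) passed the p-value but not the fold limit.

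KO morulae gave the same comparison in other embryos. Between Sox2 KO and Oct4 KO morulae 1627 genes (11.6%) were called, 904 lower and 723 higher. Of these, 517 were called the same way between the Ctrl groups, which is 52.7% of the Ctrl calls and 31.8% of the KO calls, and 4 were called the opposite way. Of the 12 lowest genes all 12, and of the 12 highest 10, were called the same way in KO morulae. Snap91 (0.89) and Fcgr3 (0.65) were the other two. Sox2 KO and Oct4 MWT morulae, which also share no library with the Ctrl groups, differed at 872 genes (6.26%), 371 of them called the same way as between Ctrl groups (37.8% of Ctrl calls, 42.5% of the 872) and 1 the opposite way. All 12 highest and 10 of the 12 lowest genes were called the same way there too, and those that were not were Cchcr1 and Tmem87a.

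The size of the line difference was tested against KO morulae directly. An interaction passed for 50 genes (0.356%), 43 with a lower value in Ctrl than in KO morulae and 7 with a higher one. Pou5f1 (-5.44) and Sox2 (2.99) were among them, as the deleted genes. Trp53bp2 was at 0, 2.88 and 6.90 CPM in Oct4 KO and 44.3, 63.2 and 87.7 CPM in Sox2 KO morulae, so its line difference of 4.22 there exceeded the 1.75 between Ctrl groups (interaction -2.47, edgeR adjusted p-value 0.00498). H2-Q1 turned from -3.11 to 2.92 (interaction -6.03, edgeR adjusted p-value 0.000370). Of genes named after their values were seen, Sfrp1, a secreted Wnt inhibitor, turned from -1.33 to 1.65, and Tet2, a methylcytosine oxidase, had 0.13 and 1.76, Gdf3, a TGF-beta ligand, 0.85 and 5.06, and Ezr, an apical actin linker, 0.59 and 3.33. Mean CPM in Oct4 Ctrl and Oct4 KO morulae were 83.7 and 11.1 for Sfrp1 and 163 and 53.3 for Tet2. For Gdf3 they were 7.25 and 0.243, and for Ezr 24.8 and 4.19. In Sox2 Ctrl and Sox2 KO morulae these genes, in the same order, averaged 33.8 and 38.4, 178 and 187, 13.2 and 12.9, and 37.3 and 45.1.

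Most line differences of the morula were not called at later stages. Between Ctrl early ICMs 1397 genes (9.94%) were called, of which 122 were also called the same way in morulae (12.4% of the morula calls, 8.73% of the early ICM calls) and 77 the opposite way. Between Ctrl late ICMs 370 genes (2.63%) were called, 49 of them the same way (4.99% and 13.2%) and 8 the opposite way. The difference between stages passed the interaction test for 2328 genes (16.6%), 1252 lower and 1076 higher in morulae than in early ICMs. Pou5f1 was 1.95 in morulae, -0.43 in early ICMs (80.6 and 58.5 CPM on average) and 1.33 in late ICMs. Mt1 was -2.46, 0.05 and -1.10, and Hspa5 was 1.86, -1.94 and -0.10. Cchcr1 kept its difference at -3.31, -3.61 and -3.71, and Tmem87a had -2.16, -2.58 and -1.34.

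**Figure D5:**
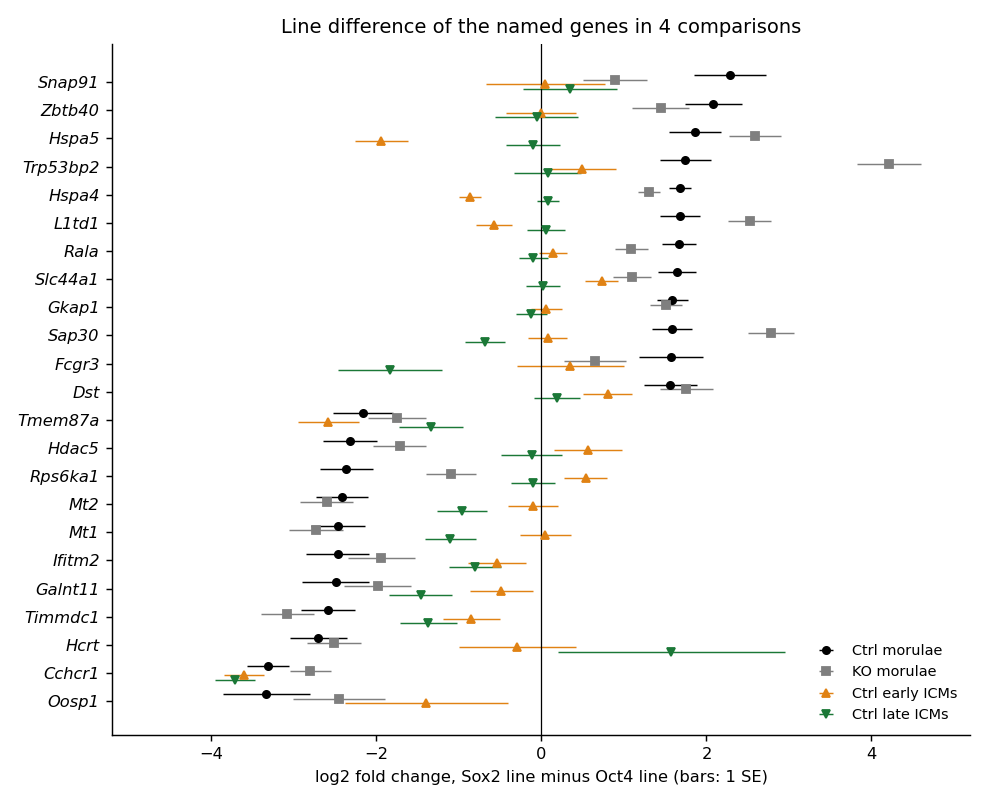
Log2 fold change (Sox2 line minus Oct4 line, bars 1 SE) of 23 of the highest and lowest named genes in Ctrl morulae, KO morulae, Ctrl early ICMs and Ctrl late ICMs, leaving out Oosp1 in late ICMs, where neither line had a UMI. Ctrl and KO morulae lie on the same side of 0 for every gene, early ICMs of Hspa5 lie at -1.94, and Cchcr1 and Tmem87a stay low in all 4 comparisons.

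Only 9 genes were called the same way in all 4 comparisons of lines, 6 lower and 3 higher, and those named here were chosen for being so few. Lower were Cchcr1, Tmem87a, Wdr76, Eif3j2, Gm10039 and Rps24-ps3. The higher genes included Shisal2b (12.7 and 28.8 CPM on average) and Dipk2a (2.08 and 7.34 CPM). Wdr76, a DNA-damage protein on chromosome 2 within the Tmem87a window, was at 16.8 CPM in Oct4 Ctrl, 4.22 CPM in Sox2 Ctrl and 6.57 CPM in Oct4 MWT morulae.

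Genes that differed between morulae and early ICMs in other embryos were also compared. The early ICMs had been cultured with PD0325901 and isolated from blastocysts, whereas the morulae were whole and untreated. Stage was therefore not isolated by this choice of genes. The 833 genes called higher in early ICMs than in morulae in the KO embryos of both lines had a median log2 fold change of -0.024 between the Ctrl morulae, 23 higher and 41 lower. The 874 genes called lower had a median of -0.147, 26 higher and 58 lower. Over all 14053 genes the median was -0.025, with 352 (2.5%) higher and 629 (4.48%) lower.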

How the data were processed

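The authors deposited UMI counts per gene and embryo and, from them, rlog values, which are on a log2 scale. Per the study's methods, 3'-enriched libraries were sequenced on a NextSeq 500, reads were handled with UMI-tools and Cutadapt and aligned with TopHat2 to mm10 with GENCODE vM23 transcripts (Bowtie2 for the ERCC spike-ins), genes were counted with featureCounts and UMIs corrected with TRUmiCount. Versions and the strand setting are not given in the sources used here.

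From the counts, edgeR 4.0.16 (R 4.3.3; TMM, quasi-likelihood) was fitted to 96 Ctrl and KO embryos in 12 groups over 14053 of 29022 genes, those with a UMI in at least 0.5 of the embryos of a stage. Contrasts with MWT embryos used all embryos, in 16 groups. P-values were Benjamini-Hochberg adjusted over all genes tested, and a call needed 0.05 and a log2 fold change of 1. The SE is the fold change over the square root of F. Embryo measures were compared by exact permutation. DESeq2 1.42.0 and limma 3.58.1 on the deposited rlog values were alternatives, and the fit was tested on simulated data.

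The groups came from the labels. The comparison and the 18 lists were chosen with earlier results of these data known. Named were the 12 highest and 12 lowest called genes whose higher group averaged 20 CPM or above and with every Sox2 Ctrl embryo on the same side of the Oct4 Ctrl median, passing over predicted, clone-named and pseudogene symbols, the 2 highest and 2 lowest of those passed over, every called gene of a list, the Y-linked genes and Xist, and Pou5f1 and Sox2. Hspa8, Hsp90aa1, Ddit3, Cdkn1a, Sesn2, Mdm2, Krt8, Rps3a1, Tcf19, mt-Co1 and mt-Nd1 were added after their values were seen. A few results are not reported here. Promoters came from RefSeq (GRCm38.p6). Depth limits genes of a few CPM, at which 1 UMI is about 1 CPM.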

Additional observations from a re-analysis of the deposited data

Results flagged for a closer look

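Among 134 groups of values, 13 had an embryo standing apart from the rest by Dixon's criterion (critical value 0.526 for 8 embryos), where chance gives about 5%. In Oct4 Ctrl morulae these were embryo 15 for Zbtb40 (16.8 CPM), Msn (7.84 CPM) and the mitochondrial share of UMIs (6.33%), embryo 11 for Gm46332 (24.3 CPM), embryo 16 for Tead3 (20.2 CPM) and embryo 18 for Tcstv3 (2.06 CPM). In Sox2 Ctrl morulae they were embryo 14 for Sox2 (34.2 CPM), embryo 16 for Oosp1 (8.72 CPM) and Hcrt (21.3 CPM), embryo 1 for Rps6ka1 (26.7 CPM) and Tead3 (8.02 CPM), embryo 20 for Gm16344 (93.0 CPM) and embryo 17 for H2-Q1 (4.11 CPM).

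For 4 genes named by rule the log2 line difference of Ctrl morulae minus that of KO morulae passed the edgeR interaction test: Pou5f1 (-5.44), Sox2 (2.99), Trp53bp2 (-2.47) and H2-Q1 (-6.03).

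Over all genes tested, 2328 (16.6%) passed the interaction of line with stage between Ctrl morulae and Ctrl early ICMs. Most named genes were chosen by their difference between Ctrl morulae. That difference is part of this interaction, so the choice favours passing. The log2 line difference of Ctrl morulae minus that of Ctrl early ICMs passed for most named genes. It was positive for Otx2 (4.02), Hspa5 (3.801), Cdx2 (2.67), Hspa4 (2.55), Pou5f1 (2.39), L1td1 (2.25), Mki67 (2.25), Zbtb40 (2.09), Gata3 (1.99), Hsph1 (1.86), Rala (1.52), Gkap1 (1.52), Sap30 (1.51) and Lamb1 (1.34). It was negative for H2-Q1 (-3.02), Rps6ka1 (-2.90), Hdac5 (-2.88), Mt1 (-2.51), Hcrt (-2.41), Mt2 (-2.31), Galnt11 (-2.01), Ifitm2 (-1.93), Timmdc1 (-1.74) and Prkcz (-1.58). The ribosomal protein genes named, which were those called lower between Ctrl morulae, were all on this side. Rpl39l was at -2.43, Rpl36 at -2.20, Rpl10 at -2.06, Rps27l at -1.90, Rps29 at -1.85, Rps27 at -1.78, Rpl39 at -1.62 and Rpl37 at -1.38. On this side too were mt-Ts2 (-3.66), mt-Th (-2.61) and mt-Tg (-2.33).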

How the results depend on the processing

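The 981 calls between Ctrl morulae became 956 with DESeq2, 1008 with RLE size factors, 983 with total UMIs, 904 without the detection filter, 787 at a minimum of 5 CPM, 809 after thinning to equal UMIs, 975 with the MWT embryos in the fit, 961 in these 16 embryos alone, and 897 (without Sox2 Ctrl embryo 14) to 996 (without Oct4 Ctrl embryo 7) when 1 embryo was left out. The share called lower was 629 of 981, 671 of 956 with DESeq2 and 717 of 1008 with RLE, but 1435 of 2950 without a fold minimum, where 1515 were higher. Between KO morulae it was 904 of 1627, and 808 of 1625 with total UMIs. Without a fold minimum 3918 genes were called between KO morulae, and of the Ctrl calls 2034 were called the same way in KO morulae, 310 in early and 168 in late ICMs. At a log2 fold change of 2 they were 232 and 443, with 74, 25 and 16 called the same way in KO morulae, early and late ICMs, and 24 for the interaction of line with KO. With limma on rlog values they were 298 (216 lower, 82 higher) and 546, with 178, 26 and 15 called the same way, and the cause was not tested. Thinning left 16 interaction genes and 30 called the same way in late ICMs; the alternatives for the interaction were chosen after seeing the data. The share called around Sox2 was 6.67% within 5 Mb and 2.83% within 20 Mb. With sex as a term Uty (-0.457) and Ddx3y (-0.608) reversed.

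With the replicate number as a block, which 3 embryo numbers of the Ctrl groups allow (1, 7 and 16), 418 genes were called against 350 without it, and between KO morulae 1150 against 1045. The labels do not say that a number marks a shared animal, and the correlations of the deviations of these 3 Ctrl pairs (0.013, -0.097 and 0.0095) lay within those of all pairs (-0.221 to 0.195). Of 65 named genes, 29 lost the call in at least 1 setting. Sox2, Xist, Kdm5d, Uty, Ddx3y and Eif2s3y are among the 65 but had no call to lose. Under the length and GC offset Tead3, Nlrp14, Tdpoz1, Psmb9, mt-Tv, mt-Th and mt-Ts2 lost theirs.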
